A study of Drosophila melanogaster with 12 samples.

Results

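The genes described here are 80 fly genes that carry only a CG number in the deposited table and whose RNA was higher in the larval fat body on both a high fructose and a high glucose diet. A CG number is the running number that the fly genome project gave a predicted gene, and many such genes had no name or known role when the table was made. They were chosen by their measured values. The mean of log2(value + 1) had to be at least 1.5 higher on the high fructose diet (HFD) than on the control fructose diet (CFD), and at least 1.5 higher on the high glucose diet (HGD) than on the control glucose diet (CGD), and the mean over all libraries had to be at least 20. The table held 9500 genes, of which 4476 were CG-numbered, and 3518 of these had a mean of at least 20. Of those, 82 (2.33%) passed both limits, and 2 of the 82 were left out by name, CG3523 and CG16836. The differences between high and control sugar are therefore a description of how the genes were chosen, and no test is given for them.

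The fat bodies came from wandering female larvae at the end of the last instar, and RNA-seq gave 3 libraries for each of the 4 diets and 12 in all. Control diets held 0.3 M fructose (CFD) or 0.3 M glucose (CGD), and high sugar diets held 1.7 M fructose (HFD) or 1.7 M glucose (HGD). All larvae had the same genotype, from males of the Vienna center's w1118 stock and females of the UAS-Dcr2; r4-GAL4 line, so every group, controls included, expressed Dcr2 under the r4 fat body driver. The growth notes also speak of RNA interference against InR, while the cross that they name and the study's methods hold no such transgene. Reads in the listed genes, recovered from the deposited values, ranged from 3484888 (HFD replicate 2) to 11134974 (HFD replicate 1) a library. HFD replicate 2 also had 8.67% of its recovered reads in 1 gene, CR41548, against at most 0.306% in the other 11. Mapped reads listed in the study's supplement spanned a narrower range over the libraries, and the reason for this was not tested. Values are normalised signals, adjusted by the authors to a common library size within each sugar, so levels on fructose and glucose diets are not on one scale as printed.

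The larval fat body combines storage and metabolic work that is divided between liver and adipose tissue in mammals, and it also secretes immune peptides into the hemolymph. Dietary sugar is sensed there by the paired transcription factors Mondo (Mio) and Mlx, which act on genes of glycolysis, the pentose phosphate path and fat synthesis, in part through the factor Sugarbabe (sug). The tissue takes up amino acids and lipids, activates fatty acids with coenzyme A, and can make carnitine, the carrier that brings long fatty acids into mitochondria. Fat body markers, of storage proteins and of lipid handling (9 of a list of 10 measured), summed to between 1352690 and 2660790 in every library. The Lsp and Fbp genes made most of this sum, so these markers of the labelled tissue were abundant throughout. Lower members moved in both directions: Lip3 averaged 38.1 on CFD and 9.63 on HFD, and bmm 248 and 673.

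Markers of other tissues were present and moved with diet. The summed level of 16 measured muscle genes was 15846 to 27593 on CFD and 31686 to 41744 on HFD, and 9137 to 16520 on CGD and 27743 to 40344 on HGD. The 13 measured midgut genes summed to 4217 to 14540 on CFD and 854 to 5703 on HFD, and to 4638 to 11341 on CGD and 1607 to 3816 on HGD. Muscle was thus higher on high sugar with no overlap between diets, and limma called 7 of its 16 genes higher with fructose, 13 with glucose and 0 lower, beside 9.4% and 16.7% of all genes called higher. Scaled by library totals, 4 and 12 of the muscle genes were called higher. Midgut was lower, with overlap between CFD and HFD and none between CGD and HGD, and 2 of its markers, LysD and LysE, were not listed. In a bulk sample, fewer cells of a type and less RNA per cell cannot be told apart.

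Over the 80 genes the median difference was 2.16 on the log2 scale for HFD minus CFD, with a range of 1.53 to 6.605, and 2.44 for HGD minus CGD, with a range of 1.52 to 6.32. The medians over all 9500 genes were -0.02 and 0.01. Values of the 3 HFD libraries lay above all 3 CFD libraries for 76 of the 80, beside 19% of all genes, and those of HGD above CGD for 78 of the 80, beside 24% of all genes. For 74 genes the diets did not overlap with either sugar, beside 13.9% of all genes above their controls in this way with both. Since the rule used the same libraries, these counts describe the choice. CG12057, CG13947, CG10592 and CG31233 overlapped between CFD and HFD, and CG7299 and CG14300 between CGD and HGD. Both differences were at least 2 for 42 genes and at least 3 for 14, and both were under 2 for 18. The glucose difference was the larger one for 58 genes and the fructose difference for 22. Over all CG-numbered genes with a mean of at least 20, the upper quartile of the difference was 0.42 with glucose and 0.29 with fructose. The share of all genes with a larger glucose difference was not counted. Among CG-numbered genes with a mean of at least 20, 6 passed the limit with fructose alone and 59 with glucose alone.

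**Figure D1:**
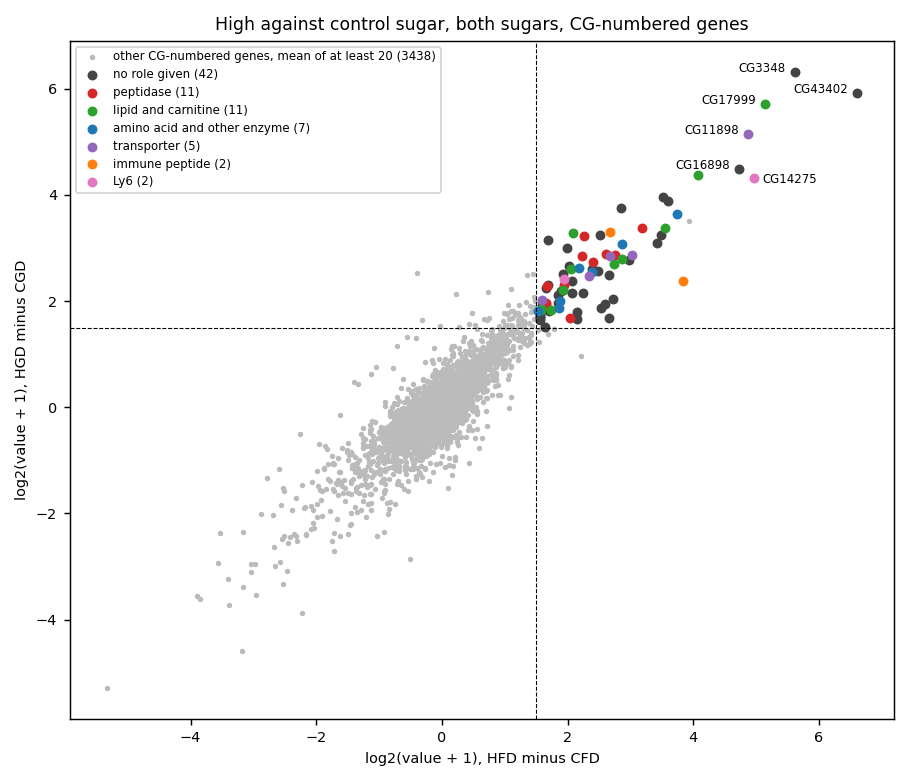
The log2 difference HFD minus CFD (horizontal) is plotted against HGD minus CGD (vertical) for CG-numbered genes with a mean of at least 20; each point is 1 gene, dashed lines mark 1.5, and colours mark the groups of role. The 80 chosen genes fill the upper right corner by rule, and 2 grey points there are the genes left out by name; CG43402, CG3348, CG17999, CG11898, CG14275 and CG16898 lie farthest out.

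The same limits were passed by 80 of 4348 genes with a mean of at least 20 whose symbol is not a CG number (1.84%), CR-numbered genes included. The 5 of these with the largest mean difference were Cyp4e3, a cytochrome P450, obst-J, a chitin-binding protein of the obstructor family, TotC, a Turandot stress peptide, Iris, and wisp, a poly(A) polymerase known from the female germline. Cyp4e3 had a difference of 8.34 with fructose and 8.91 with glucose, above every CG-numbered gene. In the downward direction 62 CG-numbered genes (1.76%) and 58 of the other genes were at least 1.5 lower on both high sugar diets.

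The largest difference of the 80 belonged to CG43402, a gene of 1 exon on chromosome arm 2L, 1442627 to 1443832 (BDGP6.54, a later build than the authors used), whose longest annotated protein has 164 amino acids. Its normalised values were 3.54, 3.02 and 2.76 on CFD and 232, 671 and 403 on HFD. On glucose they were 5.76, 3.72 and 6.49 on CGD and 1024, 272 and 186 on HGD. Every high sugar library stood far above every control library, and the 3 HGD values were themselves spread widely. The differences were 6.605 ± 0.45 (SE, n = 3 and 3) with fructose and 5.91 ± 0.77 with glucose on the log2 scale.

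CG3348 encodes a protein of 98 amino acids on arm 3R, 27291535 to 27292209, and its exons share 58 bases with Hmu. It read 68.2, 40.9 and 39.8 on CFD and 2225, 2213 and 2849 on HFD. With glucose the values were 34.99, 29.8 and 59.6 on CGD and 4833, 3487 and 2048 on HGD. It combined large differences (5.62 and 6.32) with a mean of 1494 over all libraries, and its replicates were closer on HFD than on HGD.

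CG17999 is annotated in the acyl-CoA ligase family, enzymes that join fatty acids to coenzyme A before they are burnt or built into lipids. It was nearly silent on control diets, with values of 1.76, 0.658 and 2.19 on CFD and 1.67, 0.715 and 1.099 on CGD. It read 70.8, 173 and 50.3 on HFD, and the HGD libraries gave 76.4, 164 and 109.5. The control values rest on 6 reads over 3 CFD libraries and 4 over 3 CGD libraries. The ratio of reads, scaled for depth, was 50.8 with fructose (exact 95% counting interval 23.0 to 140.0) and 104 with glucose (40.1 to 382), where the interval covers counting error only.

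CG11898, of the ABC transporters of subfamily C, which move lipids, conjugates and drugs across membranes, showed the same shape. It read 2.64, 3.09 and 2.02 on CFD and 75.6, 147 and 99.2 on HFD. On glucose it read 2.35, 2.18 and 6.42 on CGD and 123, 141 and 202 on HGD. The scaled ratio of reads was 36.4 (19.5 to 76.9) with fructose and 45.4 (25.7 to 88.6) with glucose. Its exons share 318 bases with jus, and without a known strand setting the reads of this stretch cannot be told apart.

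CG14275 is a member of the Ly6 family, small cell surface proteins held by a lipid anchor. Its values were 20.6, 5.55 and 14.2 on CFD and 369.8, 409.6 and 427 on HFD, the latter being close together. On CGD they were 63.8, 11.5 and 16.6, with replicate 1 well above the other two, and on HGD 674, 384 and 436. The second Ly6 gene, CG14401, had means of 151 on CFD and 137 on CGD, and its differences were 1.94 and 2.41.

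CG16898, on arm 2R, 20003620 to 20005003, read 7.99, 3.54 and 7.94 on CFD and 155, 247 and 175 on HFD. On CGD it ranged from 1.94 to 31.0, and on HGD from 128 to 373. Controls thus varied more with glucose than with fructose, and the diets still did not overlap.

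CG1774, of the acyl-CoA thioesterase family, which releases fatty acids from coenzyme A and so works against the ligases, had a high signal on both high sugar diets. It read 86.5, 75.6 and 61.7 on CFD and 1314, 1628 and 939.8 on HFD. On CGD it read 64.0, 93.7 and 152 and on HGD 2222, 2712 and 1407. The diets were far apart with either sugar, and the differences were 4.08 ± 0.27 and 4.38 ± 0.45.

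CG12105, CG14752 and CG6074 completed the 10 with the largest mean difference. CG12105 encodes a long protein of 1509 amino acids in 1 exon, and its values were 8.63, 9.62 and 21.3 on CFD and 116, 236 and 144 on HFD. CGD libraries gave 11.5, 10.9 and 7.70 and HGD libraries 169.8, 141 and 171. CG14752 had means of 101 on CFD and 1192 on HFD, and of 81.8 and 1343 with glucose. CG6074 is named CAH9 in the later annotation, a carbonic anhydrase, an enzyme that interconverts carbon dioxide and bicarbonate. Its deviations from the diet means ran beside those of the muscle list (r = 0.81 over 12 libraries, a description), and CG12105 had an r of 0.60 with that list. The part of muscle RNA in the result was not tested.

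**Figure D2:**
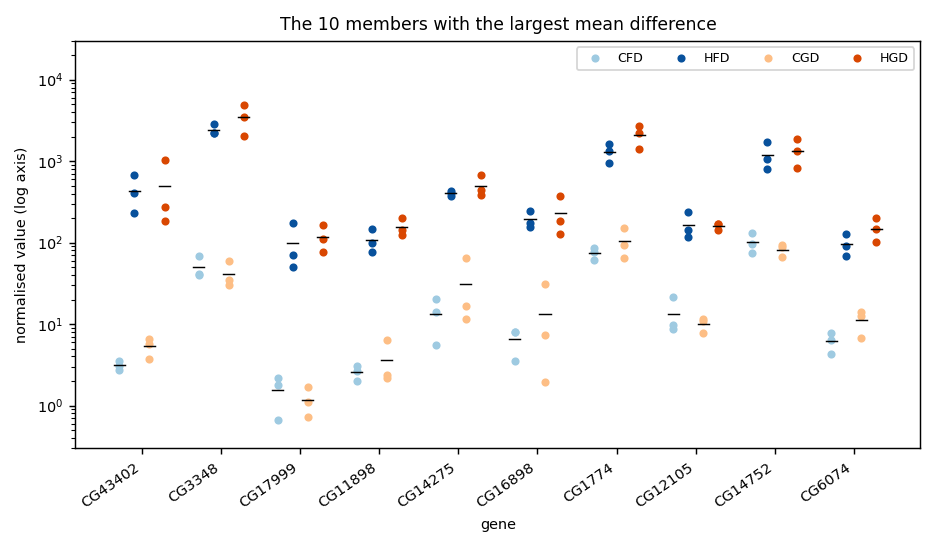
Normalised values (log axis) of the 10 genes with the largest mean difference are shown by diet; each dot is 1 library, 3 for each diet, and black bars are diet means. High sugar libraries lie above the control libraries of the same sugar for all 10 genes, and CG17999 is the lowest on both control diets.

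Fat and carnitine enzymes made up 11 of the 80 genes. With fructose their differences ran from 1.58 to 5.14 (median 2.09). The glucose differences lay between 1.83 and 5.72 (median 2.70). A second fatty acyl-CoA ligase, CG6178, stood at 263, 374 and 241 on CFD and 1524, 1221 and 914 on HFD. With glucose it read 235, 298 and 574 on CGD and 2230, 2850 and 1458 on HGD. CGD replicate 3, its highest control value, still lay below the lowest HGD value.

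The genes for both ends of carnitine synthesis were in the group. CG4335, named Tmlh, encodes trimethyllysine hydroxylase, which opens the path, and CG10814 encodes gamma-butyrobetaine dioxygenase, which closes it. Tmlh read 48.3, 62.8 and 55.9 on CFD and 185, 173 and 146 on HFD. The glucose diets gave 43.5, 59.3 and 129 (CGD) and 338, 275 and 166 (HGD). CG10814 read 51.0, 81.9 and 36.6 on CFD and 224, 228 and 241 on HFD. On CGD it stood at 35.9, 37.9 and 47.8, and HGD gave 238, 573 and 476. CG10814 had the larger differences (2.09 and 3.29, against 1.58 and 1.83 for Tmlh). From library to library within a diet they did not move together (r = 0.02 over 12 libraries, a description).

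Other lipid genes handled phospholipids, sphingolipids and esters. CG5991 is Pisd, phosphatidylserine decarboxylase, which makes phosphatidylethanolamine in mitochondria, and its means were 74.7 and 287 on the fructose diets (CFD, HFD) and 85.6 and 403 on the glucose diets (CGD, HGD). CG1882 is puml, a lipid hydrolase of the ABHD4 kind, with differences of 1.58 and 1.86, and its exons share 148 bases with cathD. CG15534, an acid sphingomyelinase, was 25.4, 4.08 and 3.58 on CFD and 175, 101 and 53.5 on HFD, so CFD replicate 1 stood apart from its 2 partners. The lipases CG6296 and CG5162 and the carboxylesterase CG4757 had mean values from 26.7 to 146, and differed by 1.74 to 2.86 with fructose and by 1.84 to 2.79 with glucose.

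Peptidase genes also numbered 11, with differences of 1.66 to 3.18 with fructose and 1.68 to 3.38 with glucose. Of these, 7 belong to the serine proteases or their homologues, a family used in digestion, clotting and immune cascades, whose members can be alike enough to share reads. CG17571 read 28.0, 40.8 and 33.9 on CFD and 825, 247 and 154 on HFD. CGD libraries gave 18.4, 25.4 and 45.4 and HGD libraries 306, 349 and 247. CG11911 read 32.4, 46.9 and 38.1 on CFD and 646, 237 and 125 on HFD. With glucose it read 25.1, 23.7 and 44.4 on CGD and 262, 241 and 181 on HGD. In both genes HFD replicate 1 was the highest library by far. Their deviations from the diet means were close over 12 libraries (r = 0.97, a description over libraries that share their depth and diet), and CG10472 had r of 0.78 and 0.79 with them.

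CG11313 had the most signal of the peptidases, with 252, 512 and 379.7 on CFD and 1298, 1392 and 1527 on HFD. The glucose diets gave 374, 308 and 483 (CGD) and 1774, 1841 and 2061 (HGD). Here HFD replicate 1 was the lowest of its diet. CG33462, CG8299 and the protease homologue CG31326 had means of 81.1, 37.4 and 109.9 over all libraries. Neprilysin-like peptidases, membrane metallopeptidases that cut small peptides, were CG9780 (Nepl11), CG9505 (Nepl4) and CG3239 (frma). Nepl4 was the steadiest of them, with 172, 238 and 169 on CFD and 623, 551 and 645 on HFD. The aminopeptidase CG31233 read 17.0, 11.4 and 7.33 on CFD and 70.1, 47.7 and 15.9 on HFD, so HFD replicate 3 lay below CFD replicate 1. For frma, 999 bases of exon are shared with SPR.

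The 5 transporters differed by 1.59 to 4.87 with fructose and 2.02 to 5.15 with glucose. CG8654, related to the SLC22 carriers of organic ions, read 132, 188 and 116 on CFD and 1852, 1076 and 796 on HFD. On CGD it stood at 233, 187 and 288, and HGD gave 1470, 2088 and 1637. CG4991, related to the SLC36 carriers of amino acids, read 39.5, 64.0 and 38.4 on CFD and 282, 339 and 279.9 on HFD. CGD libraries gave 40.9, 36.2 and 53.2 and HGD libraries 337, 292 and 313, so it differed little among replicates. CG3036, of the SLC17 anion carriers, and CG5853, an ABC transporter of subfamily G, were both highest in HFD replicate 1 among the HFD libraries. CG5853 shares 1853 bases of exon with CG4619, and its reads may come from either.

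Amino acid and other enzymes made up 7 genes. CG8129 is Srr, serine racemase, which makes D-serine, and its means were 270.3 and 1411 on the fructose diets (CFD, HFD) and 370.0 and 2078 on the glucose diets (CGD, HGD). CG1461 is Tat, tyrosine aminotransferase, which begins the breakdown of tyrosine. It read 13.9, 19.1 and 23.7 on CFD and 61.9, 78.2 and 73.1 on HFD. Exons of Tat overlap those of CG46317 and CG13404, and the larger overlap has 1974 bases. Its deviations followed the muscle list (r = 0.66 over 12 libraries), whose part was not tested. The sulfatase CG32191, the alkaline phosphatase CG10592 (Alp10) and CG33056 (Targ2) also belong here, as does CAH9.

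Immune peptide genes were CG15068 (BomS6), a Bomanin of the Toll response, and CG43236 (Mtkl), named for its likeness to the antifungal peptide metchnikowin. BomS6 read 8.70, 15.6 and 9.71 on CFD and 47.5, 314 and 327 on HFD. The glucose diets gave 42.0, 15.9 and 7.91 (CGD) and 247, 48.4 and 73.3 (HGD). Mtkl read 40.9, 26.6 and 16.9 on CFD and 116, 197 and 227 on HFD. On CGD it stood at 17.6, 18.2 and 43.1, and HGD gave 1013, 142 and 103. Both were highest in HFD replicate 3 on HFD and in replicate 1 on HGD, and the lowest HGD value of BomS6 was only slightly above its highest CGD value. CG18067, now Bbd (Bombardier), which short Bomanins need, had close replicates: 1760, 1797 and 1565 on CFD and 4305, 5176 and 5619 on HFD. With glucose it read 1748, 1643 and 2051 on CGD and 6031, 5383 and 6060 on HGD.

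No role was given to 42 of the 80 genes in the grouping used here, which was made after their values were seen. The 42 include genes whose known role lies outside these groups or was not used for them, such as Non1 and Bbd. Of the 42, 8 had a mean of both differences of at least 3, among them CG16857 (bdl, borderless, a cell surface protein of the immunoglobulin family) and CG13741 (Boot, bootlegger, known for the export of piRNA precursors in the germline). Boot read 7.78, 9.76 and 16.8 on CFD and 124, 123 and 134 on HFD. CGD libraries gave 17.2, 9.61 and 24.8 and HGD libraries 189, 136 and 118. The exons of Boot share 388 bases with Nadk2, and without a known strand setting the reads of this stretch cannot be told apart. The table listed 3 of 12 germline markers, wisp among them, and vas, nos, bam, aub and osk were not listed. Listed genes all had at least 1 read in every library, so a marker that was not listed need not be absent from all libraries. The 3 listed genes summed to 203 to 320 on CFD and 1013 to 1663 on HFD, and to 202 to 232 on CGD and 988 to 1503 on HGD, of which wisp made most on high sugar. Here wisp averaged 76.6 on CFD and 1084 on HFD, while piwi averaged 9.005 and 2.19 and was called lower with fructose, and ovo (194 and 229) was called with neither sugar. The part of germline RNA in the values of Boot was not tested. A further 18 genes had a mean of both differences from 2 to 3 and 16 were under 2. The 18 had levels from 22.7 to 4367 and the 16 from 22.5 to 4637 averaged over the libraries.

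Levels in the whole set spanned 22.5 to 14066, with a median of 138. These values were not divided by gene length, so they say how much signal a gene had and do not order the genes by transcript number. The mean was at least 1000 for 14 genes and under 100 for 34. CG43085, on arm 3L, 17645486 to 17646737, had the most signal: 1878, 2964 and 1717 on CFD and 14975, 31038 and 28914 on HFD. The glucose diets gave 2385, 1592 and 3639 (CGD) and 48643, 14168 and 16877 (HGD). No role is known for it in the tables used here. HGD replicate 1 was its highest library.

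CG8801 is Non1, a GTPase of the nucleolus that helps to build the large ribosomal subunit. It read 2094, 2070 and 2289 on CFD and 6176, 6571 and 6334 on HFD. With glucose it read 2614, 2065 and 2296 on CGD and 6724, 8617 and 7796 on HGD. Its differences of 1.56 and 1.73 were near the limit of the rule, the replicates were close, and the diets were well apart. CG5773 had means of 1619 on CFD and 6209 on HFD, and of 1799 and 7842 with glucose. CG4752 had means of 992 and 2946, and of 1137 and 4059.

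At the edge of the rule stood CG14696 (1.65 with fructose and 1.52 with glucose), CG32191 (1.53 and 1.81), CG18067 (1.55 and 1.69) and CG15784 (1.56 and 1.71). Just outside it were CG2911 (1.59 and 1.498), CG5835 (1.495 and 1.81), CG8773 (1.49 and 2.001) and CG9328 (1.78 and 1.48), each with 1 difference a little under the limit. No gap in the values separated members from non-members.

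**Figure D3:**
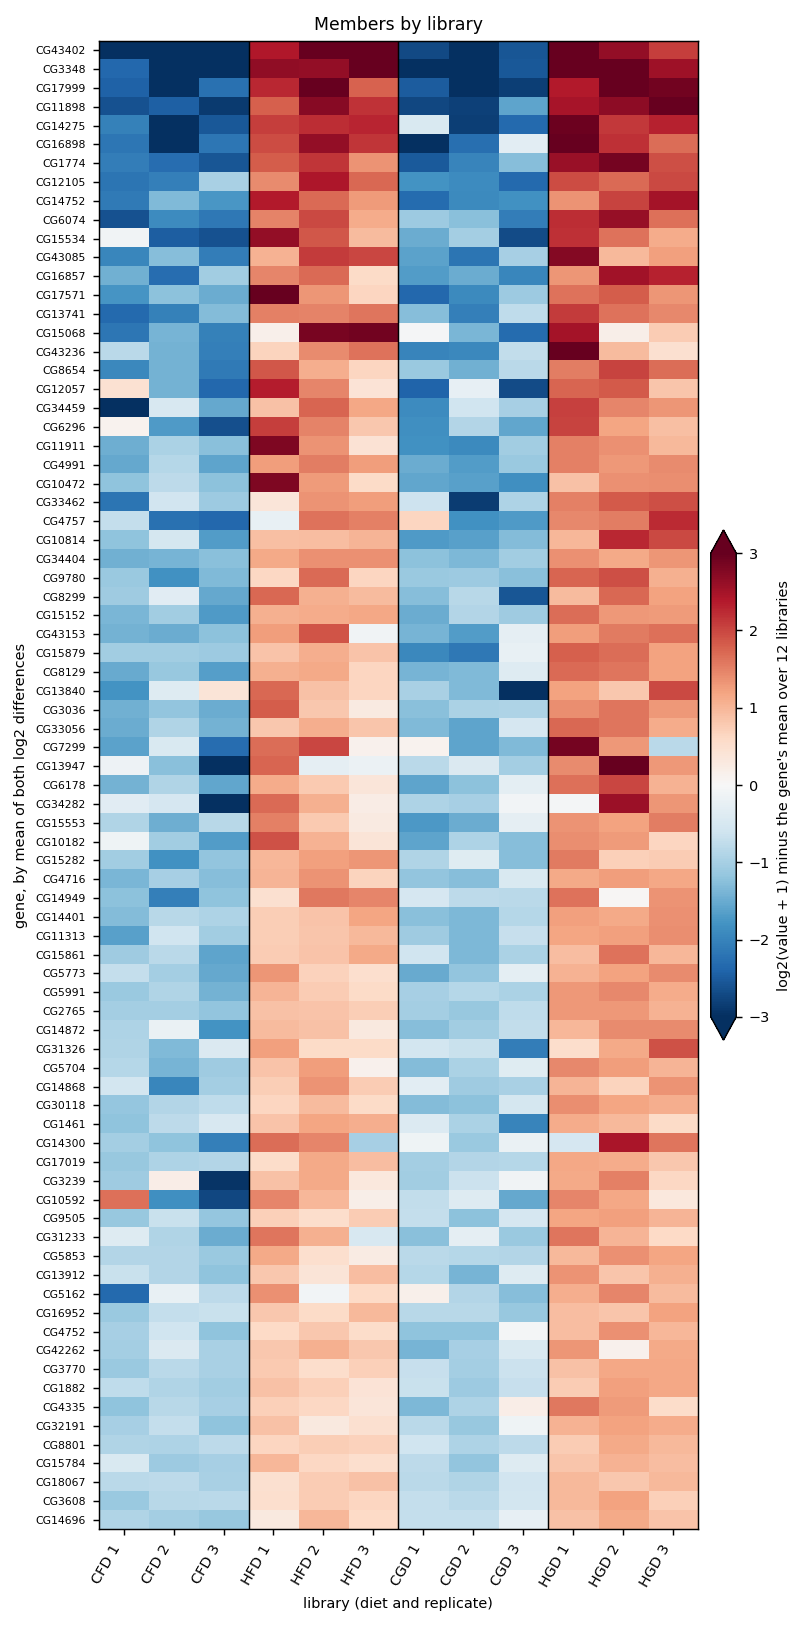
Colours show log2(value + 1) of the chosen genes (rows, ordered by the mean of both differences; 1 of the 80 is left out) in the 12 libraries (columns), minus the gene's mean over all 12, cut at -3 and 3. The 6 high sugar libraries are red for nearly all genes and the 6 control libraries blue, with exceptions such as CG10592 in CFD replicate 1 and CG14300 in HFD replicate 3 and HGD replicate 1.

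Replicates of these genes were further apart than those of most genes. The replicate SD on the log2 scale, pooled over the 4 diets, had a median of 0.467 over the 80 genes, and of 0.245 over all genes with a mean of at least 20. CG34282 (1.29), CG10592 (1.28), CG7299 (1.24) and CG15068 (1.16) were the most variable. CG10592 (Alp10, an alkaline phosphatase) read 68.5, 5.17 and 2.32 on CFD and 60.4, 42.9 and 24.2 on HFD, so CFD replicate 1 was above every HFD library. CG7299 read 13.6, 3.57 and 4.45 on CGD and 99.1, 32.3 and 6.74 on HGD, where HGD replicate 3 was below CGD replicate 1. HFD replicate 3 was the lowest HFD library for 41 of the 80 genes, beside 34.2% of all genes with a mean of at least 20. HFD replicate 2, the shallowest by recovered reads, was the highest for 34, beside 27.3%.

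Whether levels differed between the sugars was asked with a contrast that the rule did not use, the mean of both glucose diets minus the mean of both fructose diets. This contrast averages over the concentrations. A sugar difference at only 1 concentration is therefore diluted in it, and a difference in the size of the rise is not tested by it. In limma over all 12 libraries, none of the 80 genes was called at an adjusted p of 0.05, beside 0% of all 9500 genes, and the lowest adjusted p among the 80 was 0.940. At an unadjusted p under 0.05, 2 of the 80 and 433 of the 9500 genes were found, and limma-voom on recovered reads called 0 genes, with 388 at an unadjusted p under 0.05. The differences ran from -0.66 to 0.99 with a median of 0.05. The 95% intervals reached a median of 0.49 to either side, and for 58 genes the whole interval lay within 1 log2 unit of 0. For the other 22 the interval reached beyond 1 log2 unit in at least 1 direction. Intervals within 1 log2 unit still allow a difference and no test of equal levels was run, so an equal level was not shown for any of the 80.

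CG13947 had the largest difference, 0.99 (95% interval -0.13 to 2.12). Its values were 10.9, 4.51 and 0.264 on CFD and 42.7, 9.91 and 10.6 on HFD, and 6.5035, 8.68 and 5.499 on CGD and 33.8, 108 and 31.2 on HGD. HGD replicate 2 stood alone at the top and CFD replicate 3 at the bottom. With a library left out the difference ran from 0.55 (without CFD replicate 3) to 1.35 (without CFD replicate 1). CG13840, a gene of 1 exon, was at -0.66 (-1.54 to 0.22) and CG4757 at 0.63 (-0.37 to 1.63). The 2 genes with unadjusted p under 0.05 were CG8654, the SLC22-like carrier, at 0.44 (0.02 to 0.87), and the protease CG10472 at -0.65 (-1.27 to -0.03). CG10472 read 324, 112 and 68.1 on HFD and 84.6, 119 and 121 on HGD. On the control diets it read 19.3, 26.2 and 18.9 on CFD and 14.8, 14.0 and 12.03 on CGD, so every CFD library was above every CGD library as deposited. Without HFD replicate 1, the highest, its difference between the sugars was -0.34, and without HFD replicate 3 it was -0.89.

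**Figure D4:**
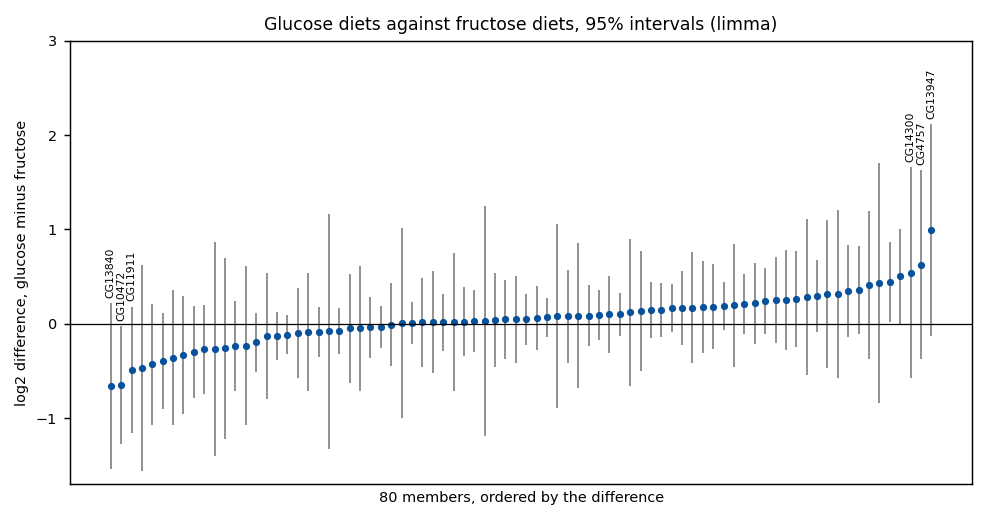
The log2 difference of glucose diets minus fructose diets (vertical) is shown for the 80 genes in rising order; dots are limma estimates over 12 libraries and lines their 95% intervals. Dots run from -0.66 to 0.99, and all lines but those of CG8654 and CG10472 cross 0.

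A subset of the 80 genes moved from library to library beside the midgut markers. After each diet's mean was taken away, 19 of the 80 genes (23.8%) had a correlation over 0.5 with the mean of the midgut list over 12 libraries, beside 13.7% of all genes with a mean of at least 20. The median r was 0.02 over the 80 and 0.01 over all genes with such a mean. Other members ran opposite to the list, down to r = -0.69 (CG14401), among them the serine protease CG33462 (-0.60). The subset was formed after values were seen and the correlations are a description. It held CG5853 (r = 0.86), the protease CG10472 (0.84), CG10182 (0.81), CG3036 (0.80), the aminopeptidase CG31233 (0.79) and CG12057 (0.74), and in all 3 of the 7 serine proteases and 3 of the 5 transporters. The list was itself highest in HFD replicate 1 and lowest in HFD replicate 3 among the HFD libraries, so the choice of the 19 favours genes with that order.

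The midgut list itself stood at 5703 in HFD replicate 1, 1521 in replicate 2 and 854 in replicate 3, and at 14540 in CFD replicate 1. Between diets the list went the other way from these genes. Of its 13 measured genes limma called 6 lower and 1 higher with fructose and 4 lower and 1 higher with glucose, beside 9.93% and 12.9% of all genes called lower. Amy-p, an amylase, averaged 31.3 on CFD and 3.28 on HFD, and LysX, a lysozyme, averaged 25.4 on CFD and 169 on HFD. CG10182 in the subset read 34.8, 18.1 and 11.3 on CFD and 148, 79.5 and 50.3 on HFD, and its exons share 759 bases with an antisense RNA. The median differences of the 19 genes were 2.34 with fructose and 2.47 with glucose, and those of the other 61 were 2.14 and 2.41. The part of gut RNA in the values of the 19 was not tested.

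**Figure D5:**
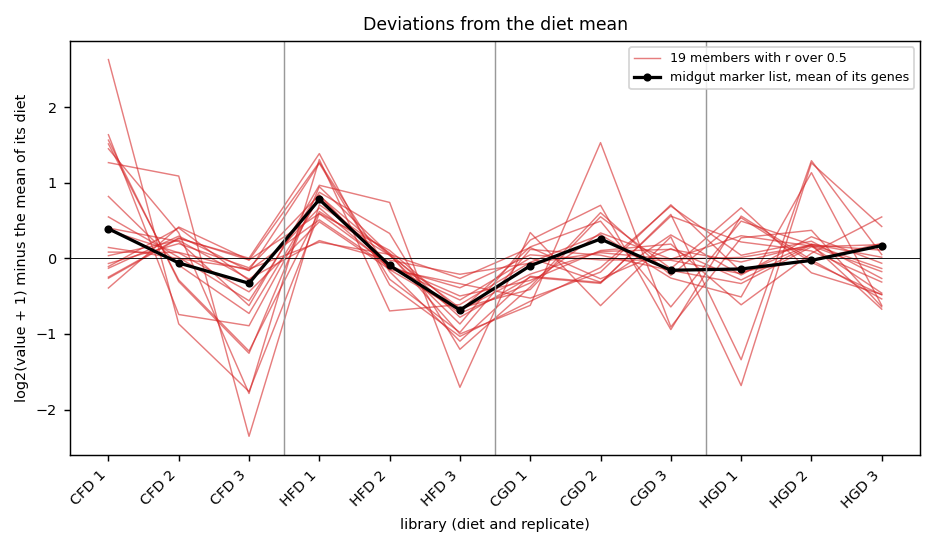
For each library (horizontal), the log2(value + 1) minus the mean of its diet is shown for the mean of the midgut marker list (black) and for the 19 genes with r over 0.5 (red lines, 1 for each gene). Both are highest in HFD replicate 1 and lowest in HFD replicate 3 among the HFD libraries, apart from 1 gene whose lowest HFD library is another.

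The 2 other lists compared this way, muscle and hemocyte, ran beside fewer genes. With the muscle list, 5 of the 80 (6.25%) had r over 0.5, beside 11.3% of all genes with a mean of at least 20, and the median r was -0.05. These 5 were CG6074, CG34459, CG1461, CG13840 and CG12105. With the hemocyte list, 12 of the 80 (15%) did, beside 11.7%.

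Positions were found for 77 of the 80 gene IDs in the later annotation, and 19 of the 80 had since been given a name. Arm 2R held 23 of the 77 (29.9%), where 18.8% of other CG-numbered genes with a mean of at least 20 lie. Arm 3R held 23 (29.9%, against 25.3% of the others) and 2L 14 (18.2%, against 17.9%). Fewer lay on 3L, with 10 (13.0%, against 19.4%), and on X, with 7 (9.09%, against 18.0%). These shares were not tested. The longest annotated protein had a median of 407 amino acids, and 430 for the other CG-numbered genes. The genes had a median of 3 exons against 4, 14 had a single exon, and 11 encoded proteins under 150 amino acids. Exons of 20 of the 77 overlapped those of another gene.

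Within 20 kb of another member lay 11 of the 77 genes (14.3%), in 7 pairs, while 4.74% of other CG-numbered genes lay that near to a member, a difference that was not tested. CG14300 and CG34282 are 1540 bases apart on opposite strands of 3R, and both encode proteins of 94 amino acids. CG34282 read 12.6, 11 and 0.105 on CFD and 54.9, 34.9 and 18.9 on HFD. The glucose diets gave 8.05, 7.55 and 15.1 (CGD) and 15.4, 101 and 42.0 (HGD). CG14300 read 6.24, 5.40 and 2.55 on CFD and 46.4, 39.5 and 6.45 on HFD. On CGD it stood at 12.4, 5.88 and 11.9, and HGD gave 9.47, 79.5 and 44.0. Both were low in HFD replicate 3 and HGD replicate 1 and high in HGD replicate 2 (r = 0.73 over 12 libraries, a description).

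CG5704 and CG15879 lie 444 bases apart on the same strand of 3L, with r = 0.62. CG14868 and CG34404 are 150 bases apart on one strand of 3R, with r = 0.20, and their mean signals over all libraries were 103 and 1684. CG15861 and CG3770 overlap on opposite strands of 2R, where CG2765 also lies, and CG8654 and CG16898 are 18724 bases apart with r = -0.05. Of 323 genes with a mean of at least 20 that lay within 20 kb of a member and were not members, 10 (3.10%) passed both limits, beside 1.05% of all genes with such a mean that were not members, a difference that was not tested. They included CG16836, IM3 and GstE9 near BomS6, Sp212 near the protease homologue CG31326, and sug near CG17019.

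Sugar sensing was followed with a list of 28 names of sugar-sensing factors and their targets, of which 24 were measured. The names Mondo and Mlx were not found, but the same genes were on the list and measured as Mio and bigmax. In limma 10 were called higher on HFD than CFD and 1 lower (tobi), beside 9.4% of all genes called higher. With glucose 18 were called higher and 0 lower, beside 16.7% of all genes called higher. Scaled by library totals, 9 were called higher and 1 lower with fructose, beside 4.27% of all genes called higher, and 11 higher and 2 lower with glucose, beside 6.55%. Sugarbabe (sug) averaged 98.3 on CFD and 514 on HFD, a difference of 2.38, and differed by 2.80 with glucose. Mio differed by 1.58 with either sugar, and all 4 of these differences were called. Gpdh, glycerol-3-phosphate dehydrogenase, which makes the backbone of triglycerides, differed by 2.83 and 3.09, and Zw, the first enzyme of the pentose phosphate path, by 1.85 and 2.30. These genes carry names, and CG3523 of the list, the fatty acid synthase left out by the rule, differed by 1.62 and 1.92.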

How the data were processed

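RNA-seq of fat bodies was measured in 12 libraries, 3 for each of 4 diets. RNA was depleted of rRNA before sequencing. According to the study's methods reads were aligned with TopHat and Bowtie and counted per gene with HTSeq on Ensembl annotation, while the notes of the submitters list Bowtie 0.12.7, TopHat 1.3.2 and Cufflinks 1.1.0 on dm3. Which of these made the table was not given in the sources used here, nor was the strand of the counting. The authors deposited a normalised signal for 9500 genes, not whole, adjusted to a common library size within each sugar. By the recovered reads, every listed gene had at least 1 read in each of the 12 libraries. A gene without reads in some library was thus not listed and could not be chosen. Columns of other samples used numbered 0.

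Undoing the adjustment, with one factor for each library, gave back whole reads. At least 99.98% of values under 1000 reads came within 0.1 of a whole read. They served for depth, library totals and counting intervals.

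The members and lists were chosen with earlier results of these data known. For comparisons between the sugars and summed marker levels, glucose libraries were multiplied by 0.880, so that the median gene had the same level with both sugars; printed gene values are as deposited. The test was limma 3.58.1 (R 4.3.3) on log2(value + 1), by eBayes with a trend, over 12 libraries in 4 groups, with Benjamini-Hochberg adjustment over 9500 genes and a threshold of 0.05. It was tested on simulated data. A log2 difference on this scale understates the change of low genes. P-values weigh a difference between group means against the spread between replicate libraries. The SE beside a difference comes from the 3 and 3 replicates. Precision at low levels is set by counting: 10 members had 3 or fewer reads in a control library.

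Genes were named by rule: the 10 largest mean differences, the 6 highest means, the 5 largest differences between sugars, the 4 largest replicate SDs, the 4 genes just inside and outside the limits, members within 20 kb of another, examples of each role, and 5 named genes past the same limits. Others were chosen after their values were seen. The values of 1 member are not reported here. Marker lists were fat body, muscle, midgut, hemocyte, germline, salivary gland, cuticle, prothoracic gland, imaginal disc, Malpighian tubule and nervous system, and the sugar-sensing list. Positions are from BDGP6.54 by gene ID. A planned description of promoters, protein features and protein identity was not run. Alternatives were other pseudocounts, scalings and filters, a replicate block, each library left out, limma-voom on recovered reads and the muscle level as a covariate, the last pair added after the data were seen, as was the scaling of marker lists by library totals. Software was Python 3.11.15, numpy 2.4.6, pandas 2.3.3, scipy 1.17.1 and matplotlib 3.10.9.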

Additional observations from a re-analysis of the deposited data

How the results depend on the processing

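No gene was called for glucose against fructose under any of the 22 alternatives, and no member either, with the lowest adjusted p of a member at 0.205 when no factor was set between the sugars. The medians of the members, chosen by these differences, ran from 2.04 to 2.35 for HFD minus CFD and from 2.33 to 2.49 for HGD minus CGD with a library left out. The median for glucose minus fructose then ran from 0.02 to 0.12, and was 0.23 with no factor between the sugars. The number of genes that met the rule was 72 to 95 with a library left out, and 56 of the 80 met it without each of the 12 in turn. It was 55 with library totals, all 55 among the 80, where the median of all genes shifted by -0.22 with fructose and -0.20 with glucose. Of all genes, HFD was then called above CFD for 406 and below for 907, against 893 and 943 as deposited, and HGD above CGD for 622 and below for 1274, against 1585 and 1225. The number that met the rule was 71 with a pseudocount of 5 and 77 without HFD replicate 2 and HGD replicate 1, 74 of them among the 80. Over all genes, calls for HFD against CFD fell from 1836 to 1220 without CFD replicate 1 and to 1148 without HFD replicate 2, in a range of 1148 to 2033 over libraries left out, and to 579 with the muscle level as a covariate. Calls for HGD against CGD numbered 2810 and ranged from 1874 to 2892 with a library left out. They fell to 114 with the muscle covariate, which was chosen after seeing the data, and the cause was not tested. Summed muscle levels did not overlap between control and high sugar diets, so a fit with this covariate cannot cleanly separate muscle from diet. With that covariate the members' medians were 2.27 and 2.51, but 7 members with fructose and 8 with glucose had a difference under 1.5, down to 0.44 (CG13840) and 0.23 (CG5162). Replicate numbers did not pair the libraries (same-number r from -0.45 to 0.26), and with a replicate block 1590 genes were called for HFD against CFD, 2502 for HGD against CGD and 0 for glucose against fructose, with the member medians at 2.16, 2.44 and 0.05. With 3 libraries a diet and 3484888 recovered reads in the shallowest, low members have wide intervals.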

Other observations

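Several other tissue markers differed between diets. The salivary gland list summed to 2451 to 8214 on CGD and 9702 to 16495 on HGD, and to 10784 to 34862 on CFD and 15090 to 17509 on HFD, so it was higher on HGD with no overlap and not separate with fructose. The 5 measured prothoracic gland markers summed to 1311 to 1771 on CFD and 3719 to 5588 on HFD, and to 1753 to 1906 on CGD and 4647 to 4808 on HGD, though only 1 of the 5 was called higher with fructose and 2 with glucose, and 2 were called lower with either. The 8 hemocyte markers had a higher sum on high sugar (5802 to 7834 on HFD against 3654 to 5040 on CFD), while limma called 4 of them lower and 1 higher with fructose and 5 lower and 1 higher with glucose, so the sum and most of its genes went opposite ways. Imaginal disc markers summed to 992 to 1273 on CFD and 1150 to 1317 on HFD, and to 1039 to 1100 on CGD and 1080 to 1263 on HGD, while 2 of the 10 were called lower with fructose and 4 with glucose and 1 higher with either. Malpighian tubule markers summed to 1492 to 1894 on CFD and 1480 to 1945 on HFD, and to 1845 to 2598 on CGD and 1550 to 2000 on HGD, with 2 of 5 called lower and 1 higher with either sugar. Cuticle markers summed to 13824 to 15914 on CFD and 12296 to 23316 on HFD, and to 12242 to 18592 on CGD and 10650 to 18772 on HGD, and nervous system markers to 3013 to 3093 on CFD and 3069 to 3553 on HFD, and to 2457 to 3346 on CGD and 2730 to 3222 on HGD. What part these tissues had in the values of the CG-numbered genes was not tested.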
